A study of Homo sapiens with 6 samples.

Results

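The genes described here encode 10 enzymes of the urea cycle, of arginine and ornithine breakdown and of polyamine synthesis, namely CPS1, OTC, ASS1, ASL, ARG1, ARG2, NAGS, OAT, ODC1 and SRM. They were found by gene symbol and are 10 of the 58735 genes in the expression table. Their levels were compared in the human hepatocellular tumour line Hep-G2, an established line, whose cells carried a lentiviral short hairpin RNA against calmegin (sh-CLGN, 3 libraries) or a control hairpin (sh-NC, 3 libraries). The sh-NC cells are labelled wild type and control treated, and both groups were selected with puromycin after lentiviral infection. Calmegin (CLGN) is a lectin chaperone of the endoplasmic reticulum, and the study asked what its loss does to liver cancer cells. Each group rests on 1 hairpin, so loss of CLGN and other effects of that hairpin cannot be told apart. The labels give the same batch value to all 6 libraries and do not say whether the 3 libraries of a group came from separate cultures, so p-values measure only the spread between these libraries, which may be technical.

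The urea cycle turns ammonia into urea in the liver. In the mitochondria N-acetylglutamate made by NAGS switches on CPS1, which makes carbamoyl phosphate, and OTC joins that to ornithine to form citrulline. In the cytosol ASS1 and ASL turn citrulline into arginine, and arginase splits arginine into urea and ornithine. Ornithine then has several uses. It can return to the cycle, be turned by OAT toward glutamate and proline, or be decarboxylated by ODC1 to putrescine, the first polyamine, which SRM extends to spermidine. Polyamines are small positively charged molecules that bind nucleic acids and are needed for growth, and hepatocellular tumours commonly express less of the urea cycle than normal liver does.

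Levels are given in FPKM, the depth- and length-scaled fragment values that the authors deposited, and differences are log2 fold changes of FPKM + 1 with their standard errors (SE), sh-CLGN minus sh-NC. They were tested with limma over the 13074 genes that reached at least 1 FPKM in at least 3 libraries, and calls were made at an adjusted p of 0.05 or less. Each library held 14955816 to 16244639 reads. The targeted gene CLGN was at 24.1, 21.0 and 26.1 FPKM in sh-NC and at 9.48, 8.88 and 8.60 FPKM in sh-CLGN, a fall by 1.31 on the log2 scale (SE 0.081, adjusted p = 8.35e-06). Of 10 hepatocyte markers 10 were tested, and their summed level of 7086 to 7319 FPKM in sh-NC overlapped that of 7178 to 7642 FPKM in sh-CLGN. Albumin (ALB) was lower in sh-CLGN, at 1076 against 2007 FPKM, and alpha-fetoprotein (AFP) higher, at 3782 against 2670 FPKM. The mitochondrial share of reads was 3.25 to 4.02% in sh-NC, against 5.49 to 5.80% in sh-CLGN. Fibroblast markers (9 genes) summed to 7.17 to 8.51 FPKM in sh-NC and 48.5 to 49.9 FPKM in sh-CLGN, led by COL1A2, while DCN, THY1 and FAP stayed under 3 reads in every library. Of the 5 that were tested, all called higher, COL1A1, COL3A1 and LUM passed the filter on low values only through the sh-CLGN libraries, so that count is no support. The part of these shifts in the results that follow was not tested. In bulk RNA, fewer cells of a type and less RNA per cell cannot be told apart.

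The enzymes did not move as 1 block. ODC1 and ARG1 fell to 30.4% and 28.3% of their control means, NAGS, ASL and OAT fell by less, ASS1 rose, and ARG2 and SRM did not pass the test. CPS1 was also called higher, but it entered the test only through the sh-CLGN libraries and lost its call under quantile normalization. OTC was too low to be tested. Thus 9 of the 10 genes were tested, of which 5 were lower, 2 higher and 2 not called. With libraries scaled by read totals the split was 4 lower and 4 higher. Among all tested genes 39.0% were called lower and 26.7% higher, so a call by itself is common in this comparison. With a log2 difference of 1 or more in size added to the rule, ODC1 and ARG1 remained, both lower, where 3.19% of all tested genes passed in that direction. The median difference of the 9 enzymes was -0.25 beside -0.08 for all tested genes, with a range of -1.70 to 0.42. In 7 of the 9 the libraries of the 2 groups did not overlap, against 70.2% of all tested genes.

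**Figure D1:**
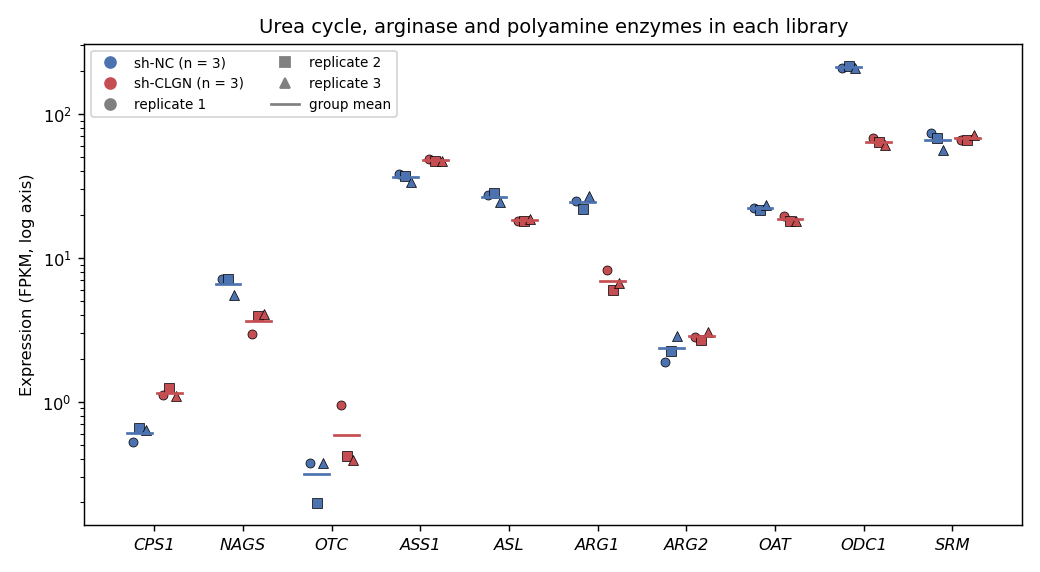
Level of each of the 10 enzymes in each library, in FPKM on a log axis, with sh-NC in blue, sh-CLGN in red, a marker shape for each replicate and a line at the group mean. ODC1 fell from a mean of 211 to 64.3 FPKM and ARG1 from 24.6 to 6.94 FPKM, while the SRM libraries of both groups lay between 56.5 and 74.3 FPKM.

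Of the 3 enzymes at the mitochondrial entry of the cycle, CPS1 and OTC were expressed at low levels and NAGS near the middle of the tested genes. NAGS (ENSG00000161653, chr17:44004546-44009063, plus strand, GRCh38) makes the activator of CPS1, and it stood at 7.14, 7.16 and 5.50 FPKM in sh-NC and at 2.95, 3.93 and 4.08 FPKM in sh-CLGN. Every sh-CLGN library was below every sh-NC library. The mean went from 6.60 ± 0.954 to 3.65 ± 0.618 FPKM (SD, n = 3 each), 55.4% of control, with a log2 difference of -0.71 (SE 0.125, adjusted p = 0.00147, limma).

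CPS1 (ENSG00000021826, chr2:210477682-210679107, plus strand), the rate-controlling first enzyme of the cycle and among the most abundant mitochondrial proteins of normal hepatocytes, was near the lower end of the measured range in this line. It was at 0.526, 0.655 and 0.636 FPKM in sh-NC and at 1.12, 1.26 and 1.09 FPKM in sh-CLGN, from 79 to 106 and 190 to 222 reads. The groups did not overlap, and the sh-CLGN mean was 1.91-fold the control mean. The log2 difference was 0.42 (SE 0.094, adjusted p = 0.00451, limma). CPS1 passed the filter on low values only through the sh-CLGN libraries, and its call was lost under quantile normalization, where the difference was 0.16 (adjusted p = 0.187, limma).

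OTC (ENSG00000036473, chrX:38352545-38421450, plus strand) counted 9, 5 and 10 reads in the control libraries, and 28, 12 and 11 reads under sh-CLGN. These are 0.373, 0.198 and 0.374 FPKM against 0.955, 0.424 and 0.394 FPKM. The sh-CLGN libraries were higher by a narrow margin, and 1 of them held most of the excess. With no filter on low values the log2 difference was 0.26 (adjusted p = 0.295, limma), so a change of OTC was not detectable at this depth.

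The cytosolic pair ASS1 and ASL moved in opposite directions. ASS1 (ENSG00000130707, chr9:130444929-130501274, plus strand) condenses citrulline and aspartate to argininosuccinate. Its level was 38.3, 37.4 and 33.8 FPKM in sh-NC and 48.9, 46.8 and 47.3 FPKM in sh-CLGN. All sh-CLGN libraries lay above all sh-NC libraries. The mean of 47.7 ± 1.05 FPKM was 131% of the control mean of 36.5 ± 2.36 FPKM (SD, n = 3 each), with a log2 difference of 0.38 (SE 0.057, adjusted p = 0.000630, limma).

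ASL (ENSG00000126522, chr7:66075798-66093558, plus strand) cleaves argininosuccinate to arginine and fumarate. It was at 27.4, 28.3 and 24.3 FPKM in sh-NC and at 18.0, 18.1 and 18.6 FPKM in sh-CLGN. The groups did not overlap, and the sh-CLGN libraries lay within 1 FPKM of each other. Its mean went down from 26.7 ± 2.10 to 18.2 ± 0.310 FPKM (SD, n = 3 each), 68.3% of control, and the log2 difference was -0.52 (SE 0.063, adjusted p = 0.000202, limma). Both genes have pseudogenes whose reads may be split with the parent gene. The 11 ASS1 pseudogenes together held 0.30 to 1.25% as many reads as ASS1, of which ASS1P12 had 12 to 17 reads in sh-NC, against 6 to 13 in sh-CLGN. ASLP1 had 7 to 15 reads in sh-NC, against 6 to 10 in sh-CLGN, 0.583 to 1.14% of ASL. ASL also shares 563 exon bases, 17.6% of its length, with the protein-coding gene AC068533.4 on the same strand. That gene had 0 reads in each sh-NC library and 0 to 2 in sh-CLGN. How reads in the shared bases were counted is not given in the sources used here.

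The last step of the cycle showed the larger shift. ARG1 (ENSG00000118520, chr6:131573144-131584332, plus strand), the cytosolic arginase that marks hepatocytes, was at 24.9, 21.7 and 27.1 FPKM in sh-NC. In sh-CLGN it was at 8.19, 5.99 and 6.65 FPKM, so the groups were well apart. Its mean went down from 24.6 ± 2.71 to 6.94 ± 1.13 FPKM (SD, n = 3 each), 28.3% of control. The log2 difference of -1.69 (SE 0.114, adjusted p = 1.21e-05, limma) ranked 97 of the 13074 tested genes by size. MED23, a Mediator subunit on the opposite strand, overlaps the ARG1 gene but shares 0 exon bases with it. It rose by 0.54 on the log2 scale (SE 0.086), from 5.14 ± 0.721 to 7.91 ± 0.0609 FPKM.

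ARG2 (ENSG00000081181, chr14:67619798-67651720, plus strand) is the mitochondrial arginase, which is expressed mostly outside the liver. It was at 1.90, 2.27 and 2.89 FPKM in sh-NC and at 2.83, 2.70 and 3.07 FPKM in sh-CLGN. The groups overlapped through sh-NC replicate 3. The log2 difference was 0.22 (SE 0.112, 95% interval -0.04 to 0.48, adjusted p = 0.123, limma). Without that library it was 0.33 (adjusted p = 0.0141, limma), and with scaling by read totals 0.36 (adjusted p = 0.0243, limma). ARG2 shares 904 exon bases, 37.4% of its length, with VTI1B on the opposite strand, and since the strand setting of the counting is not given in the sources used here, reads of these genes cannot be told apart there. VTI1B fell by 0.31 on the log2 scale (SE 0.070), a call lost with read totals (-0.14, adjusted p = 0.108, limma).

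The start regions of the arginase genes differ in base composition and in the short motifs they hold. They are shown because the transcripts of these isoenzymes, which catalyse the same reaction, stood so far apart. Each is the RefSeq window on GRCh38.p14 from 250 bases before to 50 bases after a start, 5′ to 3′ on the gene's strand, chr6:131572976-131573275 for ARG1 and chr14:67619670-67619969 for ARG2. Capitals mark TATAA, the GC box GGGCGG and the cyclic AMP response element TGACGTCA on either strand.
ARG1: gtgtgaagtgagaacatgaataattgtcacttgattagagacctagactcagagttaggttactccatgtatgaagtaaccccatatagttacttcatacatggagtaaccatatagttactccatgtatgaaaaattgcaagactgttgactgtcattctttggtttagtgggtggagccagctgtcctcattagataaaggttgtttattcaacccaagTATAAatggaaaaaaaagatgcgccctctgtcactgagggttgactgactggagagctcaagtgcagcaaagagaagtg
ARG2: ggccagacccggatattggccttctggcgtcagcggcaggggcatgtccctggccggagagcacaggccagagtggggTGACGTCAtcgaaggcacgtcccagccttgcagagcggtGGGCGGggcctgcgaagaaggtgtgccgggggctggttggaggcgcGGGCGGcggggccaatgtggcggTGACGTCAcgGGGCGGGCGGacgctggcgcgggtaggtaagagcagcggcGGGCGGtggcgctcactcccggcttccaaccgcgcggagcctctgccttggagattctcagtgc
The ARG1 window has 40.0% G and C and holds 1 TATAA match. The ARG2 window has 71% G and C and holds 5 GC boxes and 2 TGACGTCA matches. Among 35116 windows of the same length, 20.4% hold TATAA, 45.0% hold a GC box, 1.85% hold TGACGTCA and 0.0598% hold it at least 2 times. The motifs were picked after the windows were seen, and a match describes letters and no binding. Whether they bear on the levels of the arginases was not tested.

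**Figure D2:**
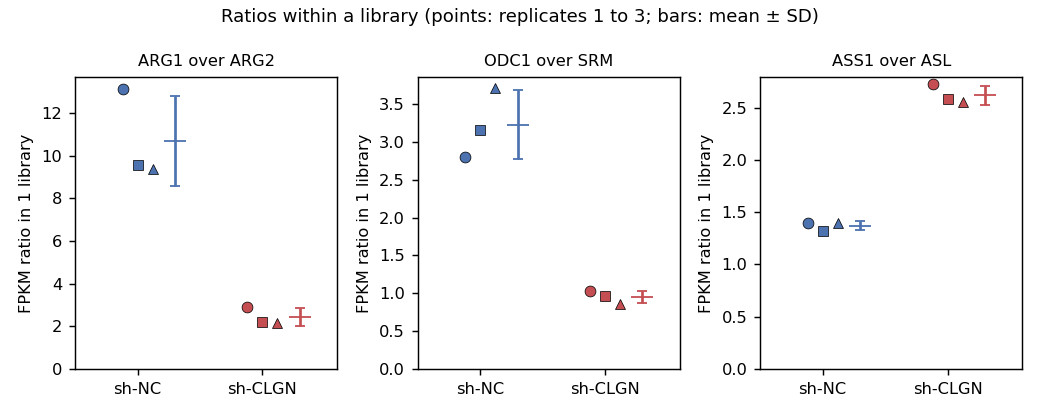
FPKM ratio of paired enzymes within each library, for ARG1 over ARG2, ODC1 over SRM and ASS1 over ASL, with points for the replicates and bars for the mean ± SD. In sh-CLGN the first ratio fell from 10.7 to 2.43, the second from 3.23 to 0.952, and the third rose from 1.37 to 2.62.

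Ratios taken within a library do not depend on how libraries were scaled to each other. The ARG1 level was 13.1, 9.58 and 9.39 times that of ARG2 in sh-NC and 2.90, 2.22 and 2.16 times in sh-CLGN. ARG2 thus made up 8.72 ± 1.42% of the summed arginase FPKM in sh-NC, against 29.4 ± 3.28% in sh-CLGN (SD, n = 3 each), while the sum went from 26.9 ± 3.0 to 9.81 ± 1.17 FPKM. ASS1 was at 1.40, 1.32 and 1.39 times ASL in sh-NC and at 2.72, 2.59 and 2.55 times in sh-CLGN. ASS1 over ARG1 went from 1.5 ± 0.238 to 6.97 ± 0.935. None of these ratios overlapped between the groups. They were chosen after the values were seen, and a two-sided exact permutation test gave p = 0.1 for each, the smallest value that 3 against 3 libraries allow.

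Where arginase makes ornithine, OAT and ODC1 use it. OAT (ENSG00000065154, chr10:124397303-124418976, minus strand), the mitochondrial ornithine aminotransferase, was at 22.2, 21.4 and 23.2 FPKM in sh-NC and at 19.6, 18.1 and 18.1 FPKM in sh-CLGN. The groups did not overlap, but they were close. The mean of 18.6 ± 0.883 FPKM was 83.4% of the control mean of 22.3 ± 0.876 FPKM (SD, n = 3 each), with a log2 difference of -0.25 (SE 0.055, adjusted p = 0.00448, limma). The call was lost under TPM (-0.13, adjusted p = 0.102), quantile normalization (-0.02, adjusted p = 0.812) and scaling by read totals (-0.06, adjusted p = 0.364), all with limma.

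ODC1 (ENSG00000115758, chr2:10439968-10448504, minus strand), the short-lived and growth-responsive first enzyme of polyamine synthesis, fell about as far as ARG1. It was at 208, 216 and 209.6 FPKM in sh-NC, from 8633 to 9627 reads, and at 67.9, 64.0 and 61.2 FPKM in sh-CLGN, from 2932 to 3419 reads. Each group was tight and the gap between them wide. The mean went from 211 ± 4.03 to 64.3 ± 3.38 FPKM (SD, n = 3 each), 30.4% of control. The log2 difference of -1.70 (SE 0.051, 95% interval -1.82 to -1.58, adjusted p = 7.21e-07, limma) ranked 92 of 13074 by size.

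SRM (ENSG00000116649, chr1:11054584-11060024, minus strand), spermidine synthase, was at 74.3, 68.4 and 56.5 FPKM in sh-NC and at 66.2, 66.0 and 71.1 FPKM in sh-CLGN. The groups overlapped, and sh-NC replicate 3 was the lowest of the 6 libraries. The means were 66.4 ± 9.08 and 67.8 ± 2.91 FPKM (SD, n = 3 each). The log2 difference was 0.04 (SE 0.095, 95% interval -0.18 to 0.26, adjusted p = 0.744, limma), so a change as large as that of ODC1 lies far outside its interval. Without sh-NC replicate 3 the difference was -0.07 (adjusted p = 0.291, limma). It passed the test as higher with a GC correction (0.25, adjusted p = 0.00235), with quantile normalization (0.34, adjusted p = 0.00776) and with read totals (0.23, adjusted p = 0.0490), all with limma. SRM has 64.2% G and C, and in sh-NC replicate 3 the deviation of genes from the other control libraries ran against their GC content (Spearman rho = -0.635 across 13068 genes, which are not independent replicates). ODC1 over SRM was 2.81, 3.16 and 3.71 in sh-NC, against 1.03, 0.969 and 0.860 in sh-CLGN. ODC1 over OAT, the paired users of ornithine, went from 9.50 ± 0.523 to 3.46 ± 0.0805 (SD, n = 3 each).

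One of the start windows of ODC1 and the window of SRM hold the E box CACGTG, the letters that MYC and MAX are known to bind, and both genes are textbook MYC targets. The windows, on GRCh38.p14 and 5′ to 3′ on the gene's strand, are chr2:10447963-10448262 for ODC1 and chr1:11059969-11060268 for SRM. Capitals mark the E box CACGTG and the GC box.
ODC1: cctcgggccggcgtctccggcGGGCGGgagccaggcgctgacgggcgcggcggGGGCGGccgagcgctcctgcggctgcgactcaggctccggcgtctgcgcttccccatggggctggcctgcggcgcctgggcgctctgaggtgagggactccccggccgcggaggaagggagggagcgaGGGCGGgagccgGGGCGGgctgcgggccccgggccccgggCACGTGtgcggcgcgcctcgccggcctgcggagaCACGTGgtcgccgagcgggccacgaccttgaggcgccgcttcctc
SRM: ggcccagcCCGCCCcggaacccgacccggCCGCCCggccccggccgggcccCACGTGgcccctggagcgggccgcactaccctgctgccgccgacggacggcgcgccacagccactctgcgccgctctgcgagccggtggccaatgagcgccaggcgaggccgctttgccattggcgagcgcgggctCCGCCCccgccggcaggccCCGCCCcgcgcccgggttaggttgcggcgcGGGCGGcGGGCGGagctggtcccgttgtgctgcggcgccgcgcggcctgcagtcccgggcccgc
This ODC1 window holds 2 E boxes and 4 GC boxes, and the SRM window 1 E box and 6 GC boxes. The printed ODC1 window lies inside the gene as annotated. The other ODC1 window, chr2:10448278-10448577, spans the annotated gene start and is not printed. It holds 0 E boxes, 6 GC boxes and 1 TATAA match, so the E boxes depend on the start chosen. As with the arginases, a match describes letters and no binding. Of the 14 windows of the 10 enzymes, 4 hold CACGTG. The others are 1 window of ASS1, which was called higher (0.38), and 1 of CPS1, also called higher (0.42) with the limits given above. Of all 35116 windows, 7.26% hold CACGTG and 0.664% hold it at least 2 times. MYC itself fell by 0.70 on the log2 scale (39.3 to 23.8 FPKM, adjusted p = 4.45e-05, limma) and MAX by 0.34, although the call of MAX was lost with read totals (-0.18, adjusted p = 0.0773, limma). A link between these falls and the level of any enzyme was not tested.

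**Figure D3:**
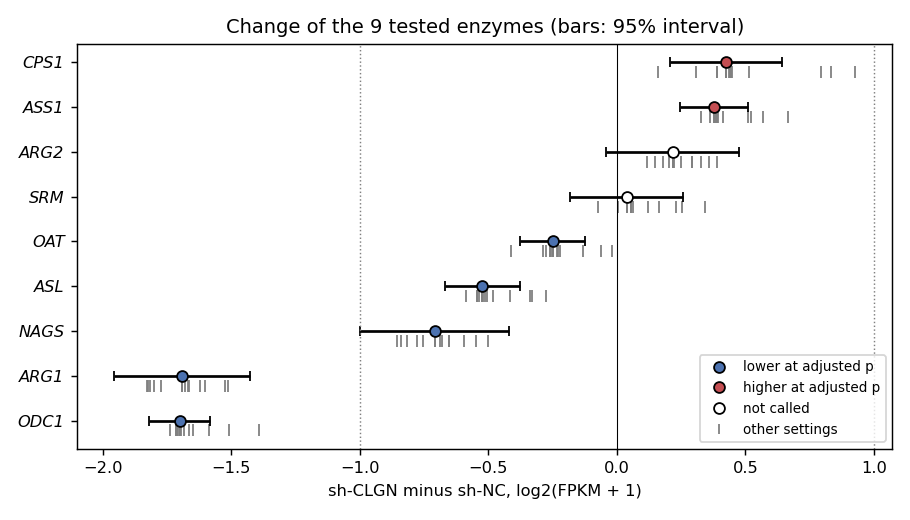
Log2 difference, sh-CLGN minus sh-NC, of the 9 tested enzymes with 95% intervals, blue for lower, red for higher and white for not called, and grey ticks for the same gene under each other setting, where the voom tick is on the scale of log2 read counts per library size. ODC1 (-1.70) and ARG1 (-1.69) stand apart from the other 7, which range from -0.71 to 0.42.

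The order of the transcript levels, all in FPKM and so per length, changed with these shifts. In sh-NC it ran from ODC1 (211) through SRM (66.4), ASS1 (36.5), ASL (26.7), ARG1 (24.6), OAT (22.3), NAGS (6.60), ARG2 (2.35) and CPS1 (0.605) to OTC (0.315). There ASL and ARG1 overlapped over their libraries, as did ARG1 and OAT, and the other neighbours did not. In sh-CLGN, SRM (67.8) and ODC1 (64.3) overlapped at the top. They were followed by ASS1 (47.7), OAT (18.6) and ASL (18.2), which overlapped each other, and then ARG1 (6.94), NAGS (3.65) and ARG2 (2.87), of which NAGS and ARG2 overlapped. CPS1 and OTC remained last.

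The wider pathway was read from 63 further genes in 6 lists, of which 51 were tested. Of these 32 were lower, 7 higher and 12 not called, with a median difference of -0.36, against the 39.0% and 26.7% of all tested genes given above. With quantile normalization the split was 20 lower and 9 higher. Of the 51, 2 passed the fold, GOT1 and SLC7A1, both lower. This count is near the 3.19% of all tested genes that passed in that direction. The lists below hold 5 to 10 tested genes each, so their counts are to be read beside the shares of all tested genes.

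Among the 8 tested further genes around ammonia, aspartate and the carriers of the cycle, 7 were lower and 1 higher (median -0.66). GOT1, the cytosolic aspartate transaminase, was at 49.8, 51.6 and 49.0 FPKM in sh-NC and at 20.3, 20.8 and 19.2 FPKM in sh-CLGN. The groups did not overlap, and the log2 difference was -1.28 (adjusted p = 1.59e-06, limma). SLC25A15, the mitochondrial ornithine carrier, went from 23.3 to 12.6 FPKM (-0.84), and SLC25A13, the aspartate and glutamate carrier citrin, from 39.9 to 26.3 FPKM (-0.58). GLUD1, glutamate dehydrogenase, went from 148 to 92.1 FPKM (-0.68), and GLUL, glutamine synthetase, from 64.8 to 41.1 FPKM (-0.64).

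Of the 10 tested genes of arginine import and use, 5 were lower, 2 higher and 3 not called (median -0.21). These counts are near the shares of all tested genes, 39.0% lower and 26.7% higher. SLC7A1, the main cationic amino acid transporter of growing cells, was at 45.0, 47.0 and 46.0 FPKM in sh-NC and at 5.92, 6.5 and 6.55 FPKM in sh-CLGN. This was a wide gap, with a log2 difference of -2.68 (adjusted p = 1.46e-07, limma). SLC7A2, a related carrier of the liver, went from 76.6 to 57.9 FPKM (-0.39), a call that quantile normalization lost (-0.11, adjusted p = 0.258, limma). AGMAT, named agmatinase, went from 61.4 to 37.5 FPKM (-0.70). The 2 higher genes were SLC7A7, from 4.98 to 7.28 FPKM (0.47, adjusted p = 0.000474, limma), and SLC25A29, from 1.37 to 2.41 FPKM (0.53, adjusted p = 0.000502, limma).

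In the ornithine and proline list 4 of the 5 tested genes outside the 10 enzymes were lower and 1 was not called (median -0.36). PYCR1, which makes proline in the mitochondria, went from 65.3 to 33.7 FPKM (-0.93, adjusted p = 9.99e-06, limma). ALDH18A1, which starts proline synthesis from glutamate, went from 81.4 to 63.0 FPKM (-0.36) and lost its call under quantile normalization (-0.07, adjusted p = 0.313, limma). PYCR3, the cytosolic reductase, fell by 0.46 on the log2 scale.

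Among 10 tested genes of polyamine synthesis and its control, 5 were lower, 1 higher and 4 not called (median -0.18). Over all tested genes 39.0% were lower and 26.7% higher. AMD1 makes the aminopropyl donor that SRM and SMS use, and it went from 22.3 to 16.9 FPKM (-0.38, adjusted p = 0.000799, limma). SMS, spermine synthase, was at 64.2 and 68.6 FPKM (0.09, adjusted p = 0.307, limma), but passed as higher under TPM (0.22), quantile normalization (0.38) and read totals (0.28). OAZ1, the antizyme that sends the ODC1 protein to degradation, went from 185 to 139 FPKM (-0.41), and AZIN1, which ties up antizyme, from 28.5 to 21.97 FPKM (-0.36). The calls of AMD1, OAZ1 and AZIN1 were lost under quantile normalization, with adjusted p of 0.0747, 0.101 and 0.161 (limma). ADI1, of the methionine salvage route, was higher, from 24.3 to 34.1 FPKM (0.48).

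Of the 9 tested genes of polyamine breakdown, transport and hypusine formation 3 were higher, 3 lower and 3 not called (median -0.08). Here too the counts are near the shares of all tested genes, 26.7% higher and 39.0% lower. SAT1, the inducible acetyltransferase that starts polyamine breakdown, was at 72.1, 63.6 and 69.0 FPKM in sh-NC and at 110.2, 102 and 100.02 FPKM in sh-CLGN. All sh-CLGN libraries were above all sh-NC libraries, with a log2 difference of 0.60 (adjusted p = 9.07e-05, limma). EIF5A, the translation factor that carries the spermidine-derived hypusine, went from 236 to 182 FPKM (-0.37), and DOHH, which completes hypusine, fell by 0.37 on the log2 scale. Both calls were lost under quantile normalization, with adjusted p of 0.237 for EIF5A and 0.0747 for DOHH (limma).

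**Figure D4:**
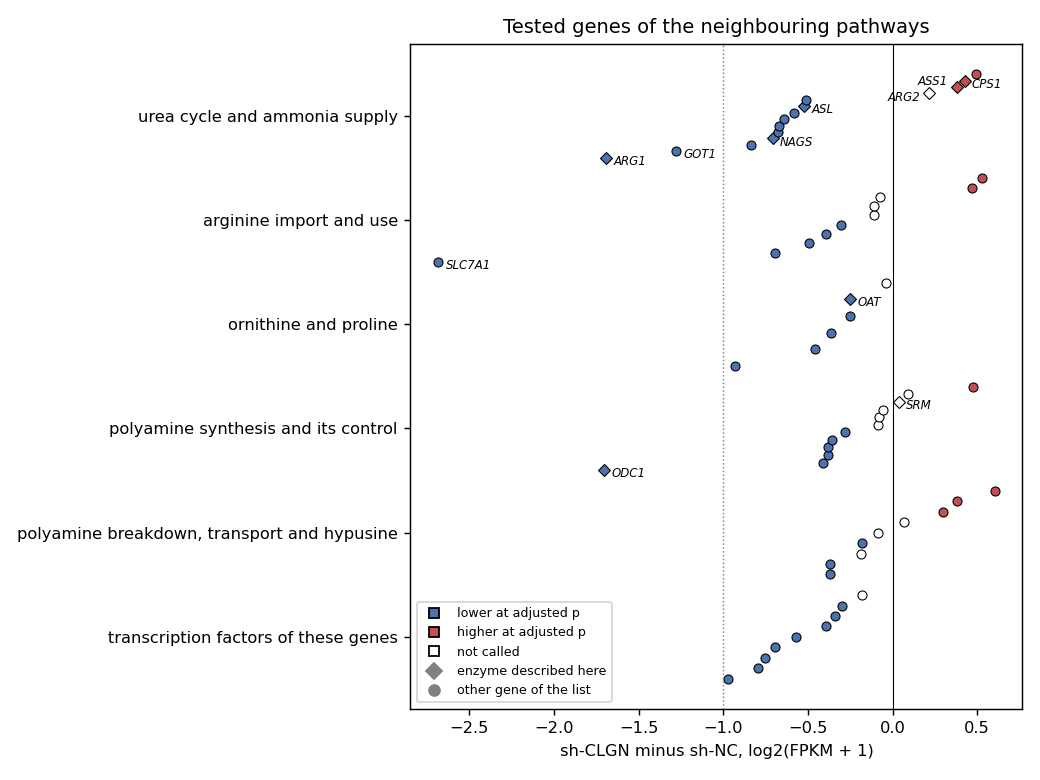
Log2 difference, sh-CLGN minus sh-NC, of the tested genes of the 6 lists, diamonds for the enzymes described here and circles for other genes, blue for lower, red for higher and white for not called, with a dotted line at -1. SLC7A1 (-2.68), ODC1 (-1.70), ARG1 (-1.69) and GOT1 (-1.28) lie past that line.

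Of 9 transcription factors known to act on these genes 8 were lower and 1 was not called (median -0.57), where 39.0% of all tested genes were lower. The calls of HNF4A and MAX were lost under other scalings. FOXA2, a liver factor, was at 48.1, 48.5 and 43.0 FPKM in sh-NC and at 22.6, 22.1 and 25.1 FPKM in sh-CLGN. The groups were well apart, with a log2 difference of -0.97 (adjusted p = 1.46e-05, limma). CEBPA, a regulator of several urea cycle genes, went from 101 to 57.5 FPKM (-0.79), and ATF4, the amino acid stress factor, from 250.05 to 168 FPKM (-0.57). HNF4A, a main hepatocyte factor, went from 63.8 to 51.7 FPKM (-0.30, adjusted p = 0.00185, limma), a call lost under quantile normalization (-0.01, adjusted p = 0.830) and read totals (-0.10, adjusted p = 0.104).

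The 3 tested genes whose 6 centred values lay nearest to those of ODC1, by Euclidean distance on log2(FPKM + 1), were TF (distance 0.148), NOX1 (0.162) and PTPRU (0.168). TF, the iron carrier transferrin, went from 181 to 58.4 FPKM (-1.62). NOX1, a superoxide-producing oxidase, went from 4.53 to 0.670 FPKM (-1.73), and PTPRU, a receptor tyrosine phosphatase, from 8.25 to 1.91 FPKM (-1.66). NOX1 passed the filter on low values only through the sh-NC libraries. With a pseudocount of 0.1 the difference was -1.72 for ODC1, -1.63 for TF, -2.59 for NOX1 and -2.05 for PTPRU. The nearness of NOX1 and PTPRU to ODC1 thus rests on the 1 added to FPKM.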

How the data were processed

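The 6 Hep-G2 RNA libraries, 3 of each hairpin, were made with a NEBNext Ultra kit for Illumina per the labels. Per gene and library, the authors deposited FPKM values, with gene lengths and positions. The submitters' processing notes name HISAT2 2.0.5, featureCounts and GRCh38. The strand setting and the handling of reads that fit several genes are not given in the sources used here, so values of genes with pseudogenes or overlapping genes are uncertain. All 58735 positions equalled GENCODE 29. Columns were assigned to samples through their names (KD for sh-CLGN).

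Whole reads per gene were recovered from FPKM and gene length for 100% of values (tolerance 0.01 of a read). The library sizes behind FPKM were 0.933 to 0.953 of the read totals for the control hairpin and 1.07 to 1.08 for sh-CLGN. On a gene of 1 kb 1 read was worth 0.0589 to 0.0717 FPKM.

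The groups were compared on log2(FPKM + 1) by limma 3.58.1 (R 4.3.3; eBayes, trend by intensity), two-sided, without covariates, on genes of at least 1 FPKM in at least 3 libraries, with Benjamini-Hochberg adjustment over the 13074 tested. Fold changes on this scale understate those of low genes. The script was tested on simulated data. Alternatives were a pseudocount of 0.1, no filter, no trend, quantile normalization, TPM, read totals, voom on the recovered reads of genes with at least 10 reads, a GC correction, a replicate block and leaving out each library. Replicate numbers were not taken as pairs, since same-numbered deviations correlated at -0.146 to -0.0184.

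The 10 enzymes, the lists and the tests were chosen with earlier results of these data known. Names given are the 10 enzymes, CLGN, of each list the other genes past both thresholds or otherwise the 3 with the smallest adjusted p, pseudogenes with at least 10 reads in any library, and the 3 genes nearest to ODC1. MED23, VTI1B, SLC25A15, SLC25A13, GLUD1, GLUL, SLC7A2, AGMAT, AMD1, SMS, MYC, MAX, HNF4A, ALB, AFP and the fibroblast genes were chosen after their values were seen. AC068533.4, SLC7A7 and SLC25A29 were likewise chosen after their values were seen. Promoter windows were found in the RefSeq table for 10 of the 10 enzymes. The values of 1 listed gene are not reported here.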

Additional observations from a re-analysis of the deposited data

How the results depend on the processing

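Between 6 and 8 of the enzymes were called in each setting, and ODC1 and ARG1 were past the fold, both lower, in each. ODC1 ranged from -1.74 to -1.39 and ARG1 from -1.83 to -1.51, leaving out each library included (voom gives log2 read counts per library size). The number of enzymes called higher was 4 with read totals, where ARG2 and SRM joined, against 2. Leaving out each library in turn gave 7 to 8 calls. The number of further pathway genes called lower was 20 under quantile normalization against 32. SRM ranged from -0.072, without sh-NC replicate 3, to 0.12 when each library was left out. The cause of these changes was not tested. A replicate block kept the 7 enzyme calls. Against the deposited scaling, the median of all genes shifted by 0.11 under TPM and 0.16 under read totals, and the split of calls over all genes went from 3496 higher and 5102 lower to 4285 and 3923 under TPM, 4956 and 3421 under read totals and 3954 and 4251 under quantile normalization, so small differences such as that of OAT rest on the scaling. Depth limits OTC, with 5 to 28 reads a library.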
